A study of Mus musculus with 51 samples.

Results

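The genes described here encode constitutive subunits of the proteasome. They encode the 7 alpha and 7 beta subunits of the 20S core particle and 17 subunits of the 19S regulatory particle. Members were 31 genes of this kind, each with a probe set annotated to that gene alone, out of 18192 genes on the arrays. All 31 were among the 15150 genes bright enough to be tested. Sem1, a further 19S subunit gene, was read with the related genes. Each gene was read from 1 probe set, the one with the highest mean over all arrays.

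The 26S proteasome is the protease that degrades proteins tagged with ubiquitin. Its 20S core is a barrel in which alpha rings form the gate and beta rings hold the catalytic sites, while the 19S particle binds ubiquitin chains, removes them and unfolds the substrate with a ring of ATPases before it is threaded into the core. The subunits are needed in fixed proportions, their genes are known to be transcribed together, and secretory and dividing cells such as mammary epithelium depend on the complex.

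RNA was measured in a mouse model in which Cre, driven by the Wap milk protein promoter in mammary epithelial cells, turns on a conditional Etv6-NTRK3 knock-in allele that encodes a fusion kinase. A floxed lacZ reporter at Rosa26 marks the recombined cells, and lacZ-positive cells were sorted for 3 of the 6 groups. The sorted groups were hyperplastic mammary epithelial cells (4 arrays from 4 mice), primary tumor cells (8 arrays, 6 mice) and cells of tumors passaged 1 to 4 times by transplantation (7 arrays from the tumors of 5 mice). The unsorted groups were whole primary tumors (23 arrays of 22 tumors from 14 mice), whole transplanted tumors (4 arrays, 2 mice of origin) and mammary glands of wild-type mice, which carry neither allele (5 arrays, 5 mice). Transplants grew in RAG2-/- hosts, which form no mature lymphocytes but supply stroma, so that host cells are part of an unsorted transplant. The labels give no age or reproductive stage, and no gland sample was sorted. Arrays were Affymetrix mouse genome chips, and values are log2 probe set intensities with intensities under 32 set to 32, so that 5 is the floor. Levels of different genes come from different probes and are not compared with each other.

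The 31 genes were lowest in wild-type gland, intermediate in the sorted groups and highest in whole tumors. Averaged over the 31 genes, the level was 9.24, 9.13, 9.20, 8.51 and 8.49 in the 5 glands and 9.20, 9.37, 9.55 and 9.42 in the 4 sorted hyperplasias. In the 8 sorted primary tumors it ran from 8.64 to 9.67 with a median of 9.41, and in the 7 sorted transplants from 9.14 to 9.69 with a median of 9.56. The 22 whole primary tumors lay between 9.68 and 10.21 with a median of 9.90, and the 4 whole transplants at 10.25, 10.18, 9.97 and 9.97. Every whole tumor was thus above every gland, while the sorted groups overlapped one another and the glands. Wild-type gland had the lowest group mean in 29 of the 31 genes and a group of whole tumors the highest in 29, whole transplants in 24 of them. Group means of sorted primary tumor were above those of gland and below those of whole primary tumor in 29 genes (not in Psmb2 and Psmd11), and those of hyperplasia in 28.

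**Figure D1:**
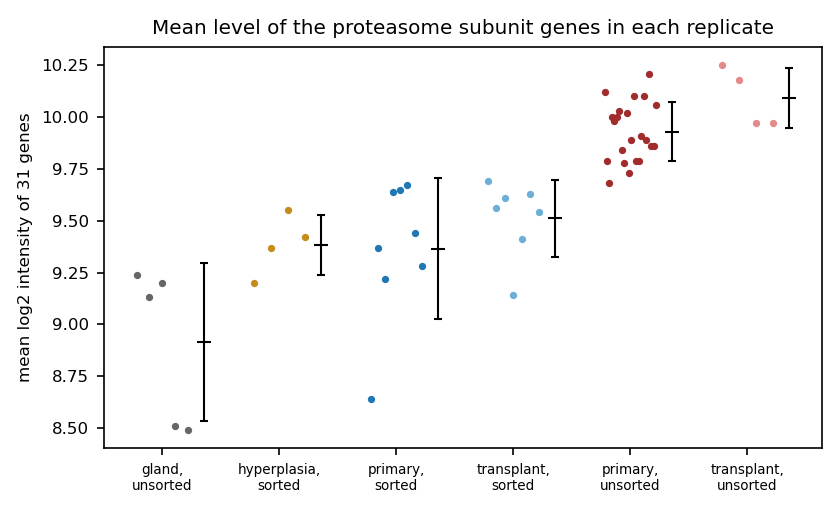
Mean log2 intensity of the 31 proteasome subunit genes (y axis) in each of 50 replicates, by group (x axis); bars give the group mean and SD. The 22 unsorted primary tumors span 9.68 to 10.21 and the 5 glands 8.49 to 9.24, with the 3 sorted groups between them and 1 sorted primary tumor at 8.64.

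Some arrays stood apart in these genes. Glands 4 and 5 were both below glands 1, 2 and 3 in 28 of the 31 genes, as they were in 5475 of all tested genes (36.1%). Their median over all tested genes was 6.75 and 6.76, against 6.96 to 7.05 in the other glands. Gland 4 also had the highest ratio of 3' to 5' actin probe sets of any array, at 2.18 on the log2 scale. That ratio was 1.01, 0.25, 0.45 and 0.83 in glands 1, 2, 3 and 5, so that of gland 5 was below that of gland 1. Sorted primary tumor 1 had the lowest value of its group in 28 genes. Sorted transplant 4 had the lowest of its group in 21 genes, and no fit left it out. Calls and median differences that rest on glands 4 and 5 or on sorted primary tumor 1 are given below with and without them. The counts of group means above and the SDs below include all arrays. Epithelial markers were bright in every group: the mean of Krt8, Krt18, Krt19, Epcam, Cdh1, Krt5 and Krt14 lay between 9.86 and 12.16 in the sorted samples and between 9.91 and 11.87 in whole tumors and glands. Sorted cells nevertheless carried macrophage and fibroblast genes: the mean of 7 macrophage and myeloid markers ran from 10.06 to 11.10 in hyperplasia and from 6.82 to 10.65 in sorted primary tumors, and no marker of either list was at the floor throughout a sorted group.

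**Figure D2:**
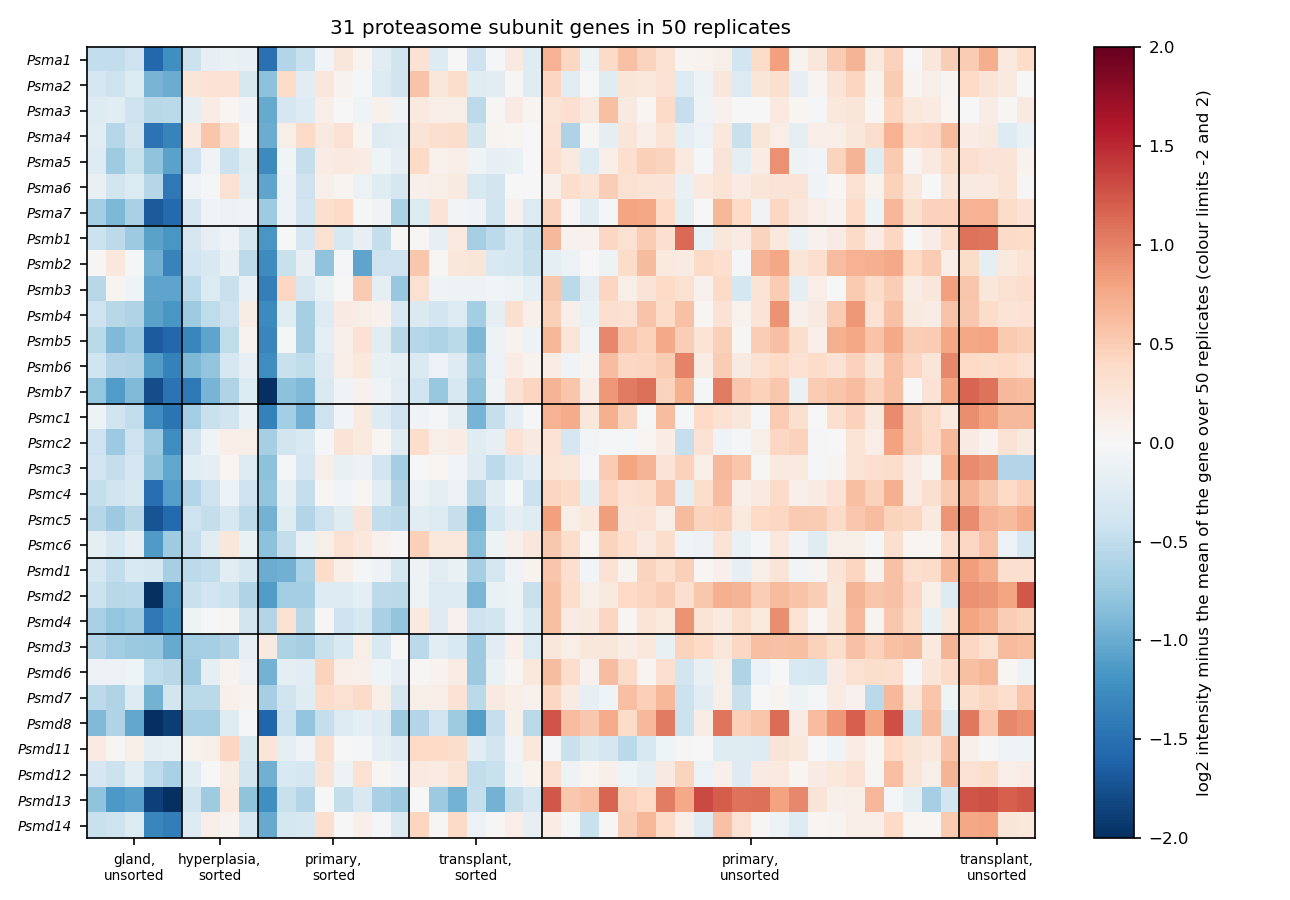
Log2 intensity of each proteasome subunit gene (rows) minus its mean over all 50 replicates (columns, by group); red is above and blue below that mean, with colours limited at 2. Rows are blocked into alpha ring, beta ring, ATPases, other base subunits and lid, and the gland columns are blue in nearly every row while Psmd11 shows no such step.

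The first comparison asked how whole primary tumors differ from wild-type gland. Proteasome subunit genes were higher in the tumors almost without exception: 29 of 31 passed in limma at an adjusted p under 0.05, and no member was lower. Among all tested genes 29.4% were called higher and 21.5% lower in this comparison. The median difference of the members was 0.92 on the log2 scale, against 0.10 over all tested genes. In 19 members every tumor lay above every gland, which was so for 6.7% of all tested genes. All 7 alpha genes, all 7 beta genes, all 6 ATPase genes, all 3 other base genes and 6 of 8 lid genes rose. Psma3 lost its call after quantile normalization (0.21, limma adjusted p = 0.147), and with the mean of each gene's probe sets so did Psma3 (0.08), Psmc6 (0.37) and Psmd7 (0.11), with limma adjusted p of 0.365, 0.0853 and 0.225, while Psmd6 gained one (0.37, 0.0392).

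In the beta ring, which carries the proteolytic sites, the 3 catalytic subunits were among the genes with the larger differences. Psmb5, the chymotrypsin-like subunit and the main target of bortezomib, was at 9.10, 8.76, 8.90, 7.98 and 8.08 in the glands and between 9.59 and 10.60 in whole primary tumors, with a median of 10.14. No tumor overlapped the glands, and the difference was 1.57 ± 0.18 (SE), or 2.97-fold, with a limma adjusted p of 2.04e-09. Psmb7, the trypsin-like subunit, was at 9.45, 9.11, 9.35, 8.45 and 8.75 in glands and between 10.09 and 11.33 in tumors, median 10.77 (difference 1.71 ± 0.23, 3.27-fold, limma adjusted p = 3.32e-08). Psmb6, the caspase-like subunit, was at 9.67, 9.48, 9.47, 8.95 and 8.71 in glands and between 9.99 and 11.05 in tumors, median 10.45 (1.19 ± 0.16, 2.29-fold, limma adjusted p = 2.6e-08). All 3 catalytic genes therefore separated tumors from glands completely. The noncatalytic beta genes, which complete the ring, had smaller estimates: Psmb4 rose by 1.10 ± 0.16, Psmb1 by 1.06 ± 0.17, Psmb3 by 0.76 ± 0.19 and Psmb2 by 0.75 ± 0.20. Those of Psmb4 and Psmb1 were close to that of Psmb6, and catalytic and noncatalytic genes were not tested against each other. Psmb1 and Psmb4 did not overlap between tumors and glands, whereas Psmb2 and Psmb3 did.

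Promoters are shown for the catalytic genes Psmb5 and Psmb6 and for the lid genes with the largest and the smallest difference, Psmd13 and Psmd11, since these genes frame the range of the group. The sequences are from RefSeq on GRCm38.p6, 5' to 3' on the gene's strand, from 200 bases before to 10 bases after the annotated start: Psmb5 is at chr14:54617986-54618195 on the minus strand, Psmb6 at chr11:70525157-70525366, Psmd13 at chr7:140882194-140882403 and Psmd11 at chr11:80428415-80428624, these 3 on the plus strand. Capitals mark the core of an antioxidant response element (TGACNNNGC) in Psmb5 and Psmb6 and an ETS-type core (CCGGAAG on either strand) in Psmd13 and Psmd11.
Psmb5: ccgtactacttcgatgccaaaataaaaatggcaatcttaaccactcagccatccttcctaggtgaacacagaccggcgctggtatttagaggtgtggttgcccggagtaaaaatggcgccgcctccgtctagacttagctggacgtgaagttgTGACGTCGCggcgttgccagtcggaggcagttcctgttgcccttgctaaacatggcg
Psmb6: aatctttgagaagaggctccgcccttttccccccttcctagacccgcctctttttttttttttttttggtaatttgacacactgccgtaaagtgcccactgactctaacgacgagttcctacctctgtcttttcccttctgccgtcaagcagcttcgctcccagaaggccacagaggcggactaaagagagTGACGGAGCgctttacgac
Psmd13: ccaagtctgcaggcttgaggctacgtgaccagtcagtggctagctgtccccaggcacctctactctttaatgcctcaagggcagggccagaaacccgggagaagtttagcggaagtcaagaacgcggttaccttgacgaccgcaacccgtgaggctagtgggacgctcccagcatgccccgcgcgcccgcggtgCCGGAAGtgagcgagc
Psmd11: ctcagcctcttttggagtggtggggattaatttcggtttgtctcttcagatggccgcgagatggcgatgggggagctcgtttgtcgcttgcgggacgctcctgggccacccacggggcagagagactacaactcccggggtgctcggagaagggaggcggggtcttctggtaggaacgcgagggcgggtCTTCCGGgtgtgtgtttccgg

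The antioxidant response core begins 47 bases before the start of Psmb5 and 9 before that of Psmb6, and the ETS-type core 6 bases before the start of Psmd13 and 11 before that of Psmd11. The promoter table held 27 promoters for 25 of the 31 members, each 300 bases long (250 before and 50 after the start), and 32851 promoters in all. Both strands were searched. TGACNNNGC, a core that NRF-type factors bind, was in 14.8% of the members' promoters (Psmb5, Psmb6, Psmc6 and Psmd12) and in 12.4% of all promoters. CCGGAAG was in 40.7% of the members' promoters and in 8.86% of all, and the 10 genes with it were Psma6, Psmc1, Psmc2, Psmc6, Psmd2, Psmd4, Psmd6, Psmd11, Psmd12 and Psmd13. The GC box GGGCGG was in 55.6% against 35.7%, CCAAT in 37% against 37.4% and the E-box CACGTG in 3.7% against 7.15%. Members' promoters had a median GC content of 56.7%, against 52.7% over all promoters, and a share that rises with GC content was not adjusted for it. Members with CCGGAAG had a median tumor minus gland difference of 0.81 (0.00 to 2.07) and those without it 1.09 (0.50 to 1.84). For TGACNNNGC the medians were 0.91 with and 0.92 without. A match is a description of letters and not of binding.

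In the alpha ring, whose subunits shape the gate of the core, Psma7 had the largest difference. Its level was 9.30, 9.07, 9.33, 8.30 and 8.42 in the glands and between 9.75 and 10.76 in whole tumors, with a median of 10.32. The groups did not overlap, and the difference was 1.35 ± 0.17, or 2.54-fold (limma adjusted p = 1.25e-08). Psma1 rose by 1.13 ± 0.18, Psma4 by 0.92 ± 0.18, Psma5 by 0.85 ± 0.16, Psma6 by 0.74 ± 0.14, Psma2 by 0.68 ± 0.16 and Psma3 by 0.50 ± 0.12. Psma3 had the smallest difference of the core subunits: its glands lay between 10.17 and 10.50, overlapping the tumors (10.26 to 11.32, median 10.89).

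The 6 ATPases form the ring that unfolds substrates and opens the gate. Psmc5 had the largest difference among them. It was at 8.35, 8.20, 8.37, 7.19 and 7.36 in the glands and between 9.04 and 9.81 in tumors, median 9.34. Tumors and glands were separated in this gene too, with a difference of 1.49 ± 0.15 or 2.81-fold (limma adjusted p = 6.71e-11). Psmc1 rose by 1.10 ± 0.18, Psmc4 by 1.09 ± 0.14, Psmc3 by 0.92 ± 0.16, Psmc2 by 0.88 ± 0.15 and Psmc6 by 0.62 ± 0.17. Psmc2 and Psmc6 overlapped between the groups and the other 4 did not.

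Of the other base subunits, Psmd2 is a scaffold that docks ubiquitin-carrying shuttle proteins and Psmd4 a ubiquitin receptor. Psmd2 was at 9.01, 8.89, 8.90, 7.41 and 8.28 in glands and between 9.17 and 10.15 in tumors, median 9.93. Gland 4 was far below the others, and without overlap the difference was 1.37 ± 0.16, or 2.58-fold (limma adjusted p = 1.42e-09). Psmd4 was at 8.88, 8.75, 8.81, 8.10 and 8.32 in glands and between 9.37 and 10.46 in tumors, median 9.78 (1.28 ± 0.15, 2.43-fold, limma adjusted p = 2.55e-09). Psmd1, a scaffold of the base, rose by 0.68 ± 0.15, also without overlap.

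The lid, which holds the deubiquitinase, contained both the largest and the smallest differences. Psmd13, a structural lid subunit, was at 6.90, 6.56, 6.62, 5.83 and 5.09 in glands and between 7.04 and 9.02 in tumors, median 8.32. The lowest tumor was only just above the highest gland, and the difference was 2.07 ± 0.24, or 4.19-fold (limma adjusted p = 2.03e-09). Psmd8, a lid subunit that completes lid assembly, was at 8.29, 8.57, 8.13, 7.12 and 7.29 in glands and between 8.72 and 10.46 in tumors, median 9.79 (1.84 ± 0.24, 3.59-fold, limma adjusted p = 1.82e-08). Psmd14, the deubiquitinase that cuts ubiquitin chains off the substrate, was at 9.57, 9.60, 9.74, 8.71 and 8.63 in glands and between 9.57 and 10.68 in tumors, median 10.11 (0.89 ± 0.17, 1.85-fold, limma adjusted p = 1.97e-05), so that its ranges overlapped. Psmd3 rose by 1.16 ± 0.12 without overlap, and Psmd7, the partner of Psmd14, and Psmd12 by 0.59 ± 0.17 and 0.59 ± 0.14 with overlap.

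Psmd6 and Psmd11 did not pass. Psmd6 had a difference of 0.37 ± 0.18 (limma adjusted p = 0.0742). Psmd11, the lid subunit that clamps the regulatory particle to the core, was at 10.69, 10.55, 10.65, 10.34 and 10.37 in glands and between 9.99 and 11.10 in tumors, median 10.49. Glands lay inside the range of the tumors, and the difference was 0.00 ± 0.13 (limma adjusted p = 0.996). After quantile normalization of the arrays Psmd11 was called lower (-0.32, limma adjusted p = 0.0216). The other Psmd11 probe sets above the floor on at least 25 replicates differed by -0.02, -0.56, 0.20, -0.21 and 0.11 between the group means of tumor and gland. The probe set used for Psmd11 can also match other transcripts, as can those of Psma6, Psmc2 and Psmd13. For Psmd13 another probe set gave 2.42 between the same group means, and a pair of dimmer ones 0.26 and -0.33. Over all members 26 further probe sets were above the floor on at least 25 replicates, and 20 of them were higher in tumor than in gland.

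**Figure D3:**
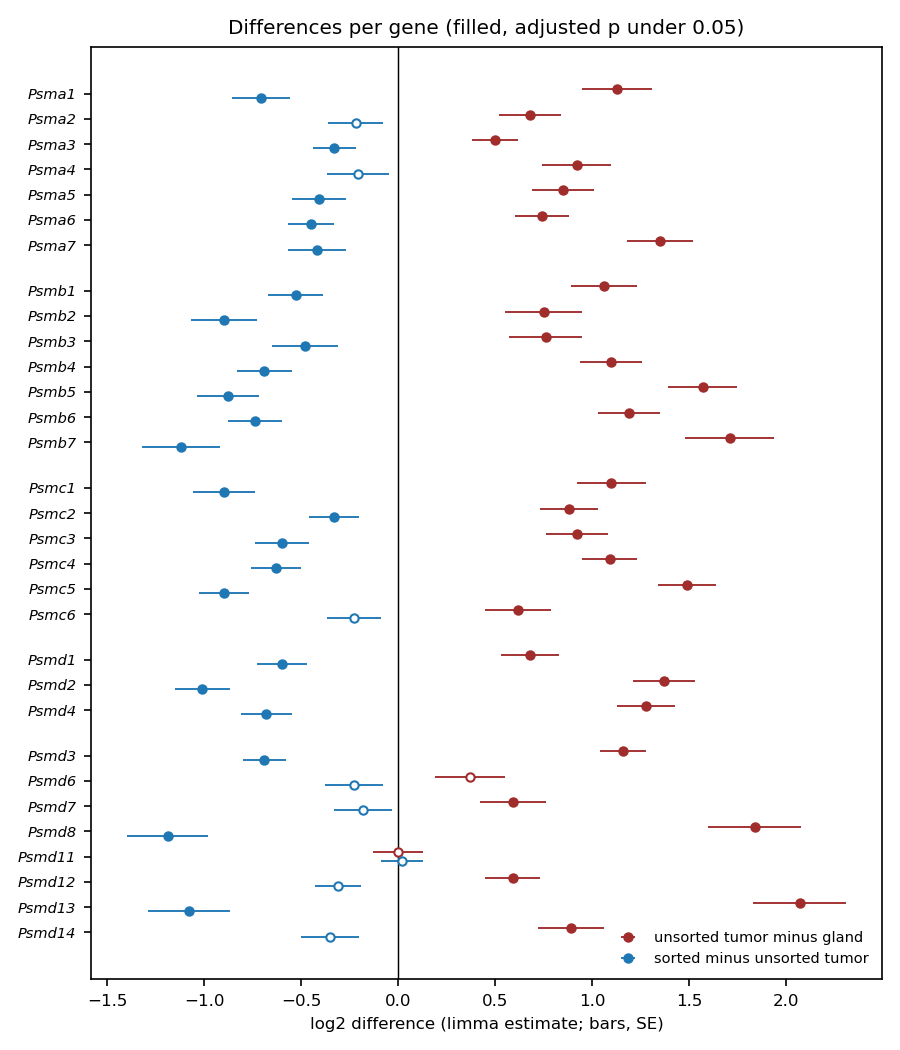
Log2 difference with its SE (x axis) for each proteasome subunit gene (y axis), unsorted primary tumor minus gland in red and sorted minus unsorted primary tumor in blue; filled points passed at a limma adjusted p under 0.05. Red points run from 0.00 (Psmd11) to 2.07 (Psmd13), and blue points from -1.19 (Psmd8) to 0.02 (Psmd11).

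Without glands 4 and 5 the median difference of the members was 0.69 and 25 of 31 were called higher, Psma2, Psmb2, Psmb3 and Psmc6 losing their calls (limma adjusted p of 0.0606, 0.359, 0.154 and 0.165), while the calls of all tested genes went from 4460 higher and 3262 lower to 2534 and 2652. Leaving out 2 glands cannot make the groups overlap. In the 28 genes where glands 4 and 5 were below the others, it also cannot add to the 19 members with every tumor above every gland. It added none, and that count is therefore no check on these glands. Tumor and gland also differ in cell makeup. Of the 6 cell cycle markers tested (Mki67, Top2a, Cdk1, Birc5, Ube2c and Bub1) all 6 rose, with a median difference of 2.74. Their mean ran from 5.27 to 7.88 in glands and from 7.43 to 9.90 in tumors. All 7 fibroblast markers and all 7 endothelial markers fell, with median differences of -3.91 and -2.66. The mean of the fibroblast list was 10.92 to 11.59 in glands and 5.65 to 10.75 in tumors, with no marker at the floor throughout either group. Of the epithelial markers Epcam rose by 0.76 ± 0.26 and the other 6 did not pass. The part of these cell types in the proteasome result was not tested. In whole tissue more cells of a type and more RNA per cell cannot be told apart. Each p-value weighs a difference against a spread between replicates that was estimated over all 6 groups together. It does not describe the spread within glands or within tumors alone.

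The next comparison set sorted lacZ-positive tumor cells beside whole primary tumors. It shares the whole tumors with the comparison above, and the values of both are given side by side without a test of their likeness. Sorted tumor cells had lower levels: 23 of 31 members fell and none rose, while 15.7% of all tested genes were called lower and 9.62% higher. The median difference of the members was -0.60, against -0.05 over all tested genes. With the mean of each gene's probe sets it was -0.37 with 20 members lower, and Psma3, Psma5 and Psmb1 (-0.07, limma adjusted p = 0.593) were no longer called. Other probe sets of a gene did not always fall as far. Between the group means, another probe set gave -0.09 for Psmb4 and -0.07 for Psma5, and a pair gave 0.09 and -0.41 for Psmd4. For Psmd13 and Psma7 another gave -1.34 and -0.49. No member separated the groups completely, and 0.323% of all tested genes did so with sorted cells lower. All 7 beta genes, 5 of 7 alpha genes, 5 of 6 ATPase genes, all 3 other base genes and 3 of 8 lid genes fell.

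Among the catalytic genes, Psmb7 ran from 8.10 to 10.31 in the 8 sorted tumors with a median of 9.97, a difference of -1.12 ± 0.20 from whole tumors (0.459-fold, limma adjusted p = 3.93e-05). Psmb5 ran from 8.34 to 9.93, median 9.44 (-0.88 ± 0.16, 0.542-fold, limma adjusted p = 5.85e-05). Psmb6 ran from 8.83 to 10.28, median 9.84 (-0.74 ± 0.14, 0.598-fold, limma adjusted p = 7.53e-05). In all 3 genes the median sorted tumor was above the brightest gland and below the median whole tumor. Psmb2 ran from 8.08 to 9.30, median 8.91 (-0.90 ± 0.17, 0.538-fold, limma adjusted p = 0.000128). For Psmb2, a noncatalytic beta subunit, the sorted tumors were thus within the range of the glands, but only because of the low glands 4 and 5. Glands 1, 2 and 3 were at 9.36, 9.55 and 9.32, above all 8 sorted tumors, the highest of which was at 9.30.

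In the regulatory particle the largest fall was that of Psmd8, which ran from 7.58 to 8.98 in sorted tumors, median 8.71 (-1.19 ± 0.21, 0.44-fold, limma adjusted p = 3.62e-05). Psmd13 ran from 6.48 to 7.70, median 7.17 (-1.08 ± 0.21, 0.474-fold, limma adjusted p = 0.00016). Psmd2 ran from 8.33 to 9.26, median 8.92 (-1.01 ± 0.14, 0.496-fold, limma adjusted p = 4.5e-07). For Psmd2 just 1 whole tumor, at 9.17, reached into the range of the sorted cells. Psmc5 ran from 7.98 to 9.18, median 8.47 (-0.90 ± 0.13, 0.537-fold, limma adjusted p = 2.17e-06), and Psmc1 from 6.95 to 8.49, median 7.88 (-0.90 ± 0.16, 0.537-fold, limma adjusted p = 4.14e-05). These 2 subunits are neighbours in the ATPase ring.

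The other falls were smaller: Psma1 by 0.71 ± 0.15, Psmb4 and Psmd3 by 0.69 each, Psmd4 by 0.68, Psmc4 by 0.63, Psmc3 and Psmd1 by 0.60, Psmb1 by 0.53, Psmb3 by 0.48, Psma6 by 0.45, Psma7 by 0.42, Psma5 by 0.41, and Psma3 and Psmc2 by 0.33. Psma2, Psma4, Psmc6, Psmd6, Psmd7, Psmd11, Psmd12 and Psmd14 did not pass, with differences from -0.35 ± 0.15 (Psmd14, limma adjusted p = 0.0715) to 0.02 ± 0.11 (Psmd11). Psmd14 reached 10.35 in sorted tumors and had a median of 9.85. Without the low sorted tumor 1, 18 members were called lower and the median difference was -0.50, with Psma3, Psma5, Psma7, Psmb3 and Psmc2 no longer called (limma adjusted p from 0.116 to 0.188). With arrays centred on their median 18 members were called lower as well, and the calls over all tested genes went from 1458 higher and 2374 lower to 1902 and 1879.

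The cell cycle list fell in sorted cells as well, in 6 of 6 markers, with a median difference of -1.26 and means of 7.45 to 8.37 in sorted and 7.43 to 9.90 in whole tumors. Macrophage markers rose in 3 of 7 (means 6.82 to 10.65 sorted, 7.04 to 9.25 whole) and fibroblast markers in 2 of 7 (7.07 to 11.41 and 5.65 to 10.75), and Krt19 and Epcam fell. The actin 3' to 5' ratio was 0.13 to 0.57 in sorted and 0.21 to 1.19 in whole tumors. With that ratio as a covariate 25 members were called lower. The part of cell makeup and of the sorting itself in the difference was not tested.

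**Figure D4:**
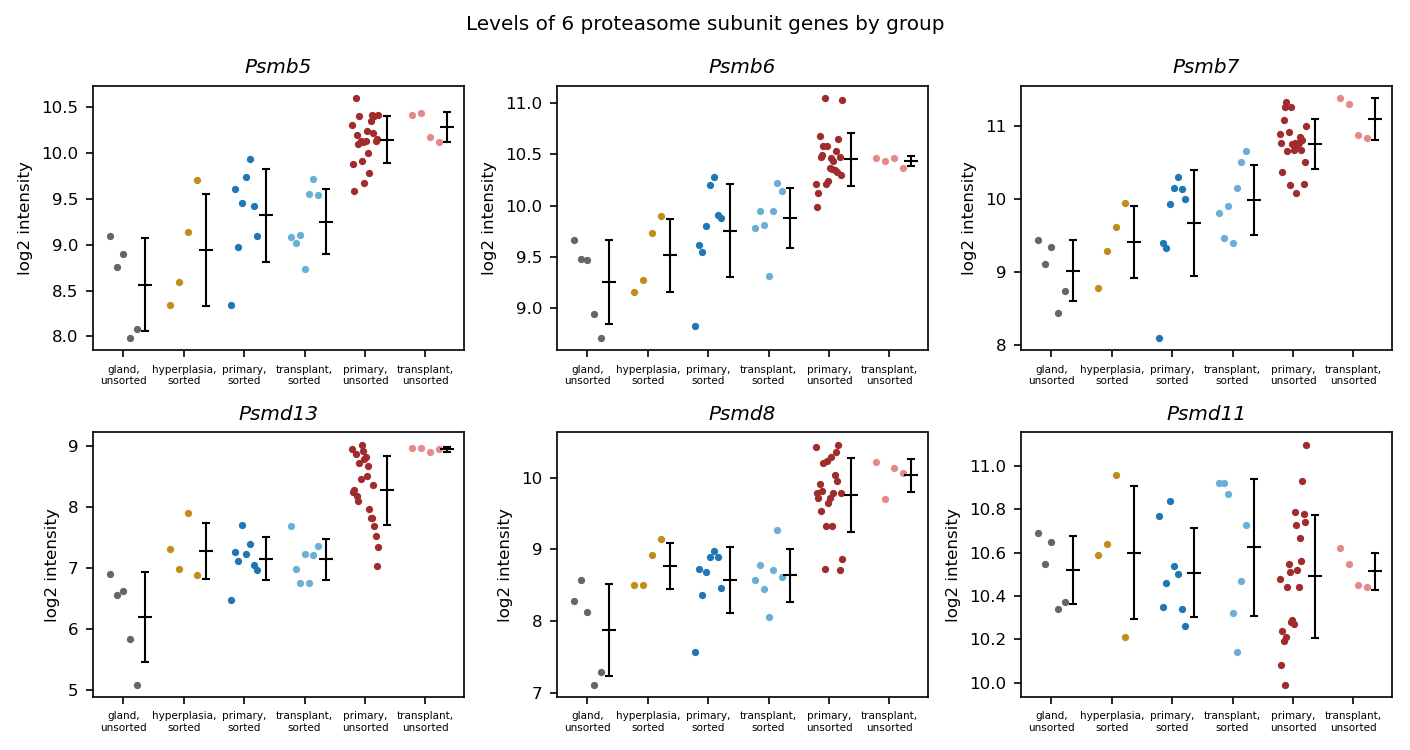
Log2 intensity (y axes) of the catalytic genes Psmb5, Psmb6 and Psmb7 and the lid genes Psmd13, Psmd8 and Psmd11 in each replicate, by group, with group mean and SD. In 5 panels the unsorted tumors have the highest group means and the glands the lowest, while single replicates of different groups overlap. Psmd11 stays between 9.99 and 11.10 in all 6 groups.

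The comparison of sorted primary tumor with sorted hyperplasia asked whether proteasome subunit levels change from hyperplastic to tumor cells. No member of 31 was called in limma, none had an unadjusted p under 0.05, and the lowest adjusted p was 0.412 (Psmd3). Over all tested genes 3.78% were called. Differences ran from -0.34 ± 0.22 (Psma4) to 0.31 ± 0.23 (Psmb5), with a median of -0.04 against 0.01 over all tested genes (0.08 without sorted tumor 1). Psmb5 was at 8.34, 8.59, 9.14 and 9.71 in hyperplasia, Psmb6 at 9.16, 9.28, 9.73 and 9.90, and Psmb7 at 8.79, 9.29, 9.63 and 9.95. In all 3 catalytic genes, the lowest hyperplasia was array 1 and the highest array 4. Differences from tumor cells were 0.19 ± 0.19 for Psmb6 and 0.19 ± 0.28 for Psmb7. Psmd14 was at 9.76, 10.14, 10.08 and 9.70, with a difference of -0.13 ± 0.21. The alpha genes had a median of -0.21, with 6 of 7 negative, and the beta genes one of 0.08, with 5 of 7 positive. With 4 hyperplasias the SE of a member was between 0.15 and 0.30, which limits the shifts that could be detected. Hyperplasia arrays also differed in the signal of bacterial spike-in transcripts (12.39, 11.31, 9.19 and 8.80), and no member was called without arrays 1 and 2 either (median difference -0.16). Markers of other cell types differed in this comparison: all 5 B and plasma cell markers fell (median -1.81), as did 3 of 7 fibroblast (-2.38), 3 of 7 endothelial (-0.98), 3 of 5 T and NK cell (-0.92) and 1 of 7 macrophage markers (-1.43). No epithelial or cell cycle marker passed. Their part in the values of the members was not tested.

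Transplantation moved no member past the threshold. In sorted cells the median difference of transplants from primary tumors was 0.14, with 28 of 31 genes positive, and 0% of all tested genes were called. The lowest adjusted p in limma was 1 over the members, with 2 at an unadjusted p under 0.05. Psmb2 had the largest difference (0.52 ± 0.19), and its 7 transplants ran from 8.90 to 9.88 with a median of 9.36. Without sorted primary tumor 1 the median was 0.05. Psmb5, Psmb6, Psmb7 and Psmd14 differed by -0.01 ± 0.18, 0.14 ± 0.15, 0.41 ± 0.22 and 0.35 ± 0.16.

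In whole tumors the median difference of transplants from primary tumors was 0.08, and 0.944% of all tested genes were called. Psmd2 was the member with the lowest adjusted p. Its 4 transplants, from 2 mice of origin, were at 10.36, 10.33, 10.23 and 10.69. Whole primary tumors ran from 9.17 to 10.15 in this gene, and the difference was 0.51 ± 0.18 (limma adjusted p = 0.215). Fitted without the mouse of origin, or with these 2 groups alone, Psmd2 was called (0.54 and 0.52, limma adjusted p = 0.0489 and 0.0499). Psmb5, Psmb6, Psmb7 and Psmd14 differed by 0.10 ± 0.21, 0.03 ± 0.18, 0.32 ± 0.26 and 0.35 ± 0.19. The test of whether the transplant effect differs between sorted and whole samples called no member (lowest limma adjusted p = 0.648, Psmb2) and 0.0858% of all tested genes.

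Some members differed between the mice of origin of the whole transplants. Psmc3, an ATPase gene, was at 10.41 and 10.36 in the 2 whole transplants from mouse CR90 and at 8.88 and 8.88 in those from mouse CR115. The CR90 pair was thus above and the CR115 pair below every whole primary tumor (9.43 to 10.26). Psmb1 (11.41 and 11.40 against 10.71 and 10.70), Psmc6 (10.35 and 10.51 against 9.82 and 9.62) and Psmd14 (10.79 and 10.80 against 10.25 and 10.23) were higher in the CR90 pair too. These genes were picked after their values were seen, and a difference between 2 mice has no replicate. The 3 sorted transplants of mouse D279 were not alike in Psmb2 (9.88, 9.36 and 8.90) or Psma7 (9.70, 10.24 and 9.70). The mean of the members was 10.12 in the primary tumor of mouse CR115 and 9.97 in both its transplants, with 7 of 31 genes higher in each. For sorted tumor F433T4 it was 9.44, and 9.41 in its first-passage transplant, with 15 genes higher. Another tumor of mouse E344 had 9.61 after transplantation against 9.22 in the primary tumor sampled, with 29 genes higher. Among whole primary tumors, the 4 of mouse C117 lay between 9.98 and 10.03, the 2 of mouse D14 at 9.73 and 10.02, and those of mice D206 and C395 spanned 9.89 to 10.10 and 9.91 to 10.10.

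The spread of the members within a group was close to that of all tested genes in sorted and whole primary tumors, smaller in hyperplasia and transplants and larger in glands. The median SD of a member was 0.27 in the 22 whole primary tumors (all tested genes 0.31), 0.40 in sorted primary tumors (0.39), 0.27 in sorted transplants (0.34), 0.16 in whole transplants (0.25) and 0.23 in hyperplasia (0.33). In the glands it was 0.41 against 0.29. Psmd13 had the widest spread in whole tumors (SD 0.56) and Psma6 the narrowest (0.16). Over the 50 replicates, the correlation of a member with the mean of the other 30 ran from 0.66 (Psma4) to 0.95 (Psmc4) in 30 genes and was 0.06 for Psmd11. These correlations describe the step between groups as well as covariation within them.

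Other genes of the pathway were read from 6 lists. The immunoproteasome subunits Psmb8, Psmb9 and Psmb10 replace Psmb5, Psmb6 and Psmb7 in cells exposed to interferon. Tumor values of Psmb8 and Psmb9 were spread widely and those of Psmb10 were not. Psmb8 was at 7.66, 7.55, 7.41, 7.33 and 7.66 in glands and between 6.83 and 10.98 in whole primary tumors, median 9.60 (difference 1.85 ± 0.45, limma adjusted p = 0.000547). Psmb9 was between 7.33 and 7.67 in glands and between 6.62 and 10.01 in tumors, median 8.83 (1.09 ± 0.45, limma adjusted p = 0.0407). Psmb10 was not called (0.27 ± 0.22, limma adjusted p = 0.32). In both genes the lowest tumor was below every gland and the highest above them, with SDs over the tumors of 1.02 for Psmb8, 0.98 for Psmb9, 0.36 for Psmb10 and 0.26 for Psmb5. In sorted minus whole tumors Psmb8 (-0.95 ± 0.39), Psmb9 (-0.83 ± 0.39) and Psmb10 (-0.15 ± 0.19) did not pass (limma adjusted p of 0.0664, 0.114 and 0.609). Of 8 interferon response markers 2 rose and 1 fell in tumor against gland.

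**Figure D5:**
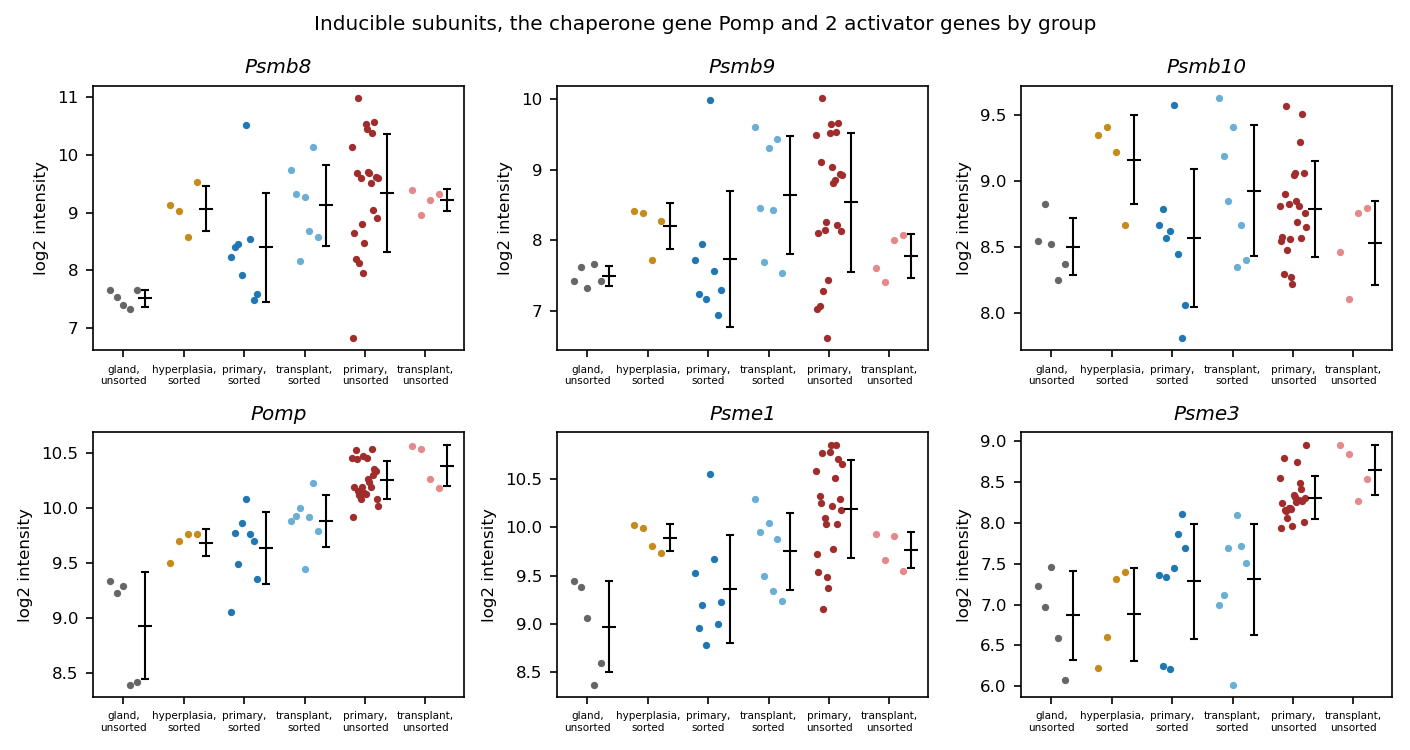
Log2 intensity (y axes) of the interferon-inducible subunit genes Psmb8, Psmb9 and Psmb10, the assembly chaperone gene Pomp and the activator genes Psme1 and Psme3 in each replicate, by group, with group mean and SD. Psmb8 spans 6.83 to 10.98 among unsorted primary tumors, while Pomp spans 9.91 to 10.53 there and lies above all 5 glands.

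Genes of regulators that bind the ends of the core were higher in tumors. In tumor against gland all 4 tested genes of this list were higher: Psme1, a subunit of the interferon-inducible PA28 cap, by 1.23 ± 0.25, Psme3, which forms the nuclear PA28 cap, by 1.47 ± 0.23, Psme4, the PA200 cap, by 0.71 ± 0.21, and Psmf1, the inhibitor PI31, by 1.25 ± 0.14 (limma adjusted p = 5.09e-05, 1.04e-06, 0.00474 and 3.83e-10). All 4 were lower in sorted than in whole tumors, by 0.83 ± 0.21, 1.21 ± 0.20, 0.56 ± 0.18 and 0.57 ± 0.12. Psme2 and Adrm1 were not analysed here.

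Of 8 chaperones that build the particle 6 rose and 1 fell against gland, and 3 fell in sorted cells. Pomp, which guides maturation of the beta rings, was at 9.33, 9.22, 9.29, 8.39 and 8.41 in glands and between 9.91 and 10.53 in tumors, median 10.21. Tumors and glands did not overlap in Pomp (1.32 ± 0.13, limma adjusted p = 5.75e-11), and sorted cells were lower than whole tumors by 0.66 ± 0.12. Psmg3, an alpha ring chaperone, rose by 1.43 ± 0.18, and Psmd5, a chaperone of the ATPase ring, by 1.24 ± 0.19. Psmg4, the partner of Psmg3, fell by 0.45 ± 0.11 (limma adjusted p = 0.000775).

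Nfe2l1 encodes the transcription factor that raises subunit gene transcription when proteasome activity is short. It was at 8.37, 8.71, 8.29, 7.67 and 8.28 in glands and between 8.23 and 9.93 in tumors, median 9.04 (0.82 ± 0.22, limma adjusted p = 0.00177), and it fell by 0.65 ± 0.19 in sorted cells (limma adjusted p = 0.0107). The related factor gene Nfe2l2 did not pass in either comparison (-0.62 ± 0.28 and 0.46 ± 0.24). Of 6 other 19S subunits and associated factors 3 rose in tumor against gland. These were Uchl5, a deubiquitinase of the base, at 1.23 ± 0.23, Txnl1 at 0.50 ± 0.15 and Sem1 at 0.39 ± 0.13. None of the 6 was called in sorted against whole tumors, where Sem1 differed by 0.20 ± 0.11. Among 6 tested genes of ubiquitin activation and delivery 4 rose, led by Vcp, the unfoldase that extracts ubiquitinated proteins (0.96 ± 0.21), and its cofactor gene Nploc4 (0.85 ± 0.14). Uba6, a ubiquitin-activating enzyme gene, fell by 0.73 ± 0.23. None of these 6 passed in sorted against whole tumors, and no gene of the 6 lists passed between sorted tumor and hyperplasia.

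Among the 15119 other tested genes, Pomp was most like the proteasome subunits, with a Pearson r of 0.95 to their mean over the 50 replicates. Mmadhc followed at 0.92, Mrps7, Bub3, Aimp1 and Grpel1 at 0.91, and Prdx2, Rpl19, Cops6 and Acp1 at 0.90. The median r of the other tested genes was 0.09. The replicates share the group steps, so r mostly reads those steps. Within the 22 whole primary tumors alone, the same 10 genes had r between 0.29 (Prdx2) and 0.65 (Cops6), and Pomp had 0.51. Among related genes Psmf1 ranked 98, Psmg3 223, Psmb8 2515 and Psmb10 6801.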

How the data were processed

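RNA extracted with Trizol and Promega SV columns was labelled as biotinylated cRNA and hybridised to Affymetrix MOE430.2 arrays, per the labels' protocols. The deposited values are linear intensities of 45101 probe sets, 64 of them controls; the authors' summary and scaling method is not stated in the labels. 1 probe set with extreme values was left out. Intensities under 32 (37.4% of values) were set to 32 before log2. Of the probe sets, 34944 had 1 gene symbol, 932 several and 9160 none; 34740 were matched by Entrez identifier to RefSeq names of GRCm38.p6. The probe set with the highest mean stood for its gene, and 15150 of 18192 genes passed a filter on dim genes (above the 40th percentile on at least 4 arrays). All 6 groups were fitted together in limma 3.58.1 (R 4.3.3), with the mouse as a random block (correlation 0.358) and 2 arrays of 1 tumor averaged. Calls are at a Benjamini-Hochberg adjusted p under 0.05 over all tested genes. The fit was tested on simulated data.

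The members and gene lists were chosen with earlier results of these data known. In each comparison the called members with the largest differences, up to 8 in each direction, were given in full, as were Psmb5, Psmb6, Psmb7 and Psmd14; of the related lists, set genes and up to 2 further called genes were named, along with the 10 genes most like the members' mean. Alternatives varied the floor, scaling, probe set rule, filter, block, covariates and samples. Protein sequences were not used here.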

Additional observations from a re-analysis of the deposited data

Results flagged for a closer look

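In 19 of 175 combinations of a group with a gene or the members' mean, 1 replicate passed Dixon's 95% critical value. That replicate was far from its nearest neighbour, relative to the range of its group. Chance gives about 1 in 20 for independent checks, but these share arrays and genes that vary together. The group of 22 whole primary tumors was not checked. No explanation was tested for any flagged replicate.

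Sorted primary tumor 1 was the lowest of its group in the mean of the members, at 8.64 with the next at 9.22. It was also far below the others in Psma3 (9.72, next 10.38), Psma4 (9.38, next 10.12), Psma5 (8.44, next 9.23), Psma6 (9.35), Psmb7 (8.10, next 9.34) and Psmd8 (7.58, next 8.37). It was the lowest of its group in 28 of the 31 members, so its low values were not limited to the genes flagged.

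Sorted transplant 4 was far below its group in Psma3 (10.20, next 10.75), Psmc5 (7.95, next 8.46), Psmc6 (9.08, next 9.84), Psmd2 (8.53), Psmd6 (8.80) and Psmd7 (7.83, next 8.46), and sorted transplant 1 was far above it in Psmb3 (9.70, next 9.33).

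Among the hyperplasias, array 1 was low in Psma1 (9.30, next 9.57) and Psma7 (9.64, next 9.86), and array 4 in Psma2 (9.96, next 10.52).

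Sorted primary tumor 5 was far above its group in the interferon-inducible subunit genes Psmb8 (10.52, next 8.55) and Psmb9 (9.98, next 7.95). The mean of 8 interferon response markers was 10.45 in that tumor and 7.47 to 8.98 in the other 7.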

How the results depend on the processing

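No paired analysis was possible because replicate numbers here follow accession order, which holds for pairing by those numbers only. The labels do link some samples by mouse or tumor. The fit takes the mouse as a random block. Some transplants were set beside a primary tumor of the same mouse above, without a test. Each hyperplasia, whole transplant and gland and sorted primary tumor 1 were left out in turn, and no other sample was. Called members then numbered 29 to 29 in tumor against gland, 18 to 23 in sorted against whole tumor (18 without sorted primary tumor 1) and 0 to 0 in sorted tumor against hyperplasia, both transplant comparisons and the difference between them. Over all alternatives the counts ran from 25 to 30 and from 18 to 25 in the first 2 comparisons. Leaving out glands 4 and 5 together, or sorted primary tumor 1, was chosen after seeing the data. In whole transplants against whole primary tumors, 1 member was called instead of 0 with no mouse block and 1 with only the groups compared, Psmd2 in both. The only direction that turned with a call was that of Psmd11 in tumor against gland, -0.32 after quantile normalization against 0.00; the cause was not tested. With the mean of each gene's probe sets, 27 members were higher in tumor than gland and 20 lower in sorted than whole tumor. The calls of all genes in sorted tumor against hyperplasia depended on the fit (195 higher and 378 lower; 1 and 12 with only the groups compared), and those of the members did not. The 5 glands, 4 hyperplasias and 4 whole transplants limit the precision of every comparison they enter.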
